A study of Mus musculus with 4 samples.

Results

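The keratin, epidermal and olfactory receptor genes of the array were examined as families best known from skin, hair and nose, to see how far their log ratios spread on each array. Members were all spots with a single annotated symbol beginning with Krt, Lce followed by a digit, Sprr or Olfr. The rule found 159 genes of 10698 named on the array, on 164 of 16281 spots, and 154 of the genes had 1 spot. They were 19 type I keratins, 15 type II keratins, 26 keratin-associated proteins, 12 late cornified envelope genes, 14 small proline-rich genes, 71 olfactory receptors and the 2 genes Krtcap2 and Krtcap3, which match by spelling alone. A further 3 spots with several symbols, at least 1 of them matching, were left out.

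The RNA came from the CA1 field of the hippocampus of young male C57BL/6J mice. The MK C+S animals had MK-801, a blocker of the NMDA receptor channel, 1 h before contextual fear conditioning, which was 2 min in a new context and a shock of 1 s at 0.5 mA, done 3 times. The MK animals had MK-801, with no conditioning named in their label, so the drug was common to both groups, and its labelled dose of 300 micrograms per g is far above usual mouse doses and is uncertain. A single 2-colour array was made at each of 1, 2, 4 and 6 h after the last shock, always with MK C+S in red and MK in green, and the number of animals behind each RNA is not known here. Without a dye swap, an effect of the dye or of a printed spot and an effect of conditioning cannot be told apart. With 1 array a time, no value at a single time has an error. The values are log ratios, read as base 10, and values above 0 are likely those where MK C+S gave the stronger signal. Neither the base nor the direction is stated. A 2-fold difference is then 0.301 log10 units. An exact 0 was read as not measured, and each array was centred on the median of its measured spots.

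Keratins are the intermediate filament proteins of epithelia, built as pairs of an acidic type I and a basic type II chain. Keratin-associated proteins embed the keratins of hair. Late cornified envelope and small proline-rich proteins are crosslinked under the membrane of dying keratinocytes to form the skin barrier. Olfactory receptors are odorant-sensing G protein-coupled receptors of the nose, where a mature sensory neuron uses a single receptor gene. Krtcap2 is different in kind, as it encodes a subunit of the enzyme complex that attaches sugars to proteins in the endoplasmic reticulum. The files hold ratios and no intensities, so neither the level of these genes in CA1 nor that of the CA1 marker genes could be checked.

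The members lie in gene clusters. By the RefSeq gene table, chromosome 3 held all 26 late cornified envelope and small proline-rich genes, within the epidermal differentiation complex. Chromosome 11 held 18 of the 19 type I keratins and 10 keratin-associated genes, and chromosome 15 held the 15 type II keratins and Krt18. Chromosome 16 held 11 keratin-associated genes, and chromosome 9 held 35 of the 71 olfactory receptors. The RefSeq promoter table (GRCm38.p6, 250 bases before to 50 after a start) had entries for 125 members. The letters TATAAA, searched on both strands and so also as TTTATA, were found in 67 of these, or 53.6%, against 15.7% of all 27025 genes of the table. The share was 22 of 24 for keratin-associated genes, 10 of 11 for small proline-rich genes, 8 of 13 for type I keratins, 3 of 7 for type II keratins, 22 of 57 for olfactory receptors and 2 of 11 for late cornified envelope genes. Counted only as TATAAA in the 40 to 11 bases before the start, it was 29.6% of members, against 2.51% of all genes, and 3 of 57 for olfactory receptors. The promoters of 4 members described in the results are shown, with TATAAA in capitals, as examples with and without these letters. Krtap8-1 (chr16:89487903-89488202, minus strand), Krt20 (chr11:99438104-99438403, minus strand) and Sprr1a (chr3:92485832-92486131, minus strand) have these letters 29, 29 and 43 bases before the start. Lce1a2 (chr3:92670266-92670565, minus strand), the lowest member on any array, has no match in this window.
Krtap8-1: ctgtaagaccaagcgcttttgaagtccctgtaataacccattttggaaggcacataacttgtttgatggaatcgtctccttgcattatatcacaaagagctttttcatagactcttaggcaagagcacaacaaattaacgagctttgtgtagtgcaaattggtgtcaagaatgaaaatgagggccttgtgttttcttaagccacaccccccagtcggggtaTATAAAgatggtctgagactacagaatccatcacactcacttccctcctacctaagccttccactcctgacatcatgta
Krt20: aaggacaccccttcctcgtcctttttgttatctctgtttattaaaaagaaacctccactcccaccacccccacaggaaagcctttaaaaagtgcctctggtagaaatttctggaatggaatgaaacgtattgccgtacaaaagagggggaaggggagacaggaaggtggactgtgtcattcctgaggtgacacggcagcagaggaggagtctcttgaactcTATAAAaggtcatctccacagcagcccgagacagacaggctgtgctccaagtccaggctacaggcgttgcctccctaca
Sprr1a: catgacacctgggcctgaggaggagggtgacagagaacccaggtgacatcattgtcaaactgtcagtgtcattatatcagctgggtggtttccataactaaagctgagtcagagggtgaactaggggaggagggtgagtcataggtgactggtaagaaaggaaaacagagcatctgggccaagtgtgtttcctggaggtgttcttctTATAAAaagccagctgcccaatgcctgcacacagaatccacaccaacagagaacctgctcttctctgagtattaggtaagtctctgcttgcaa
Lce1a2: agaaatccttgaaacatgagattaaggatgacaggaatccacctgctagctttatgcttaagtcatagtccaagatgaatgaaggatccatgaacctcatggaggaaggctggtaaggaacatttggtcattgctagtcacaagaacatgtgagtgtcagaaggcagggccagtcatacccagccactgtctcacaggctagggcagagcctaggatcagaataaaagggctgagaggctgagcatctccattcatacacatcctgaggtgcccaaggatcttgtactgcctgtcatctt

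Measured members numbered 125, 155, 151 and 146 genes at 1, 2, 4 and 6 h, and 112 had a ratio at all 4 times. No member lacked a value everywhere. Olfr1077-ps1 was measured at 6 h alone and Krt82 at 1 h alone. Exact zeros made up 22.6%, 3.05%, 4.88% and 8.54% of member spots at 1, 2, 4 and 6 h, against 20.2%, 6.53%, 4.66% and 7.11% of other named spots. The members were thus missing more often than other spots at 1, 4 and 6 h and less often at 2 h, by under 4 percentage points each time. Spots of ribosomal protein genes, which every cell uses, had exact zeros at 29.4%, 17.6%, 11.8% and 17.6%. Other genes used in every cell differed, with 10.5%, 19.7%, 15.8% and 14.5% for the respiratory chain. Proteasome subunits had 8.7%, 0%, 0% and 4.35%, below the members at every time.

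The spread of member spots, as the scaled median absolute deviation (MAD) of the log10 ratio, was 0.144, 0.177, 0.180 and 0.371 at 1, 2, 4 and 6 h. Over all other named spots it was 0.151, 0.154, 0.147 and 0.213. The members were thus no wider than other spots at 1 h, where the ratio of the MADs was 0.956, a little wider at 2 and 4 h, at 1.15 and 1.22, and 1.74 times as wide at 6 h. The mean of this ratio over the arrays was 1.27 ± 0.33 (SD, n = 4 arrays). Without the 6 h array it was 1.11. With the olfactory receptors left out, the members' MAD was 0.129, 0.149, 0.129 and 0.319 at 1, 2, 4 and 6 h. The remaining members were thus wider than other named spots at 6 h only. At 6 h, 90% of the member spots lay between -0.84 and 0.74 log10 units, against -0.52 to 0.56 for other spots.

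**Figure D1:**
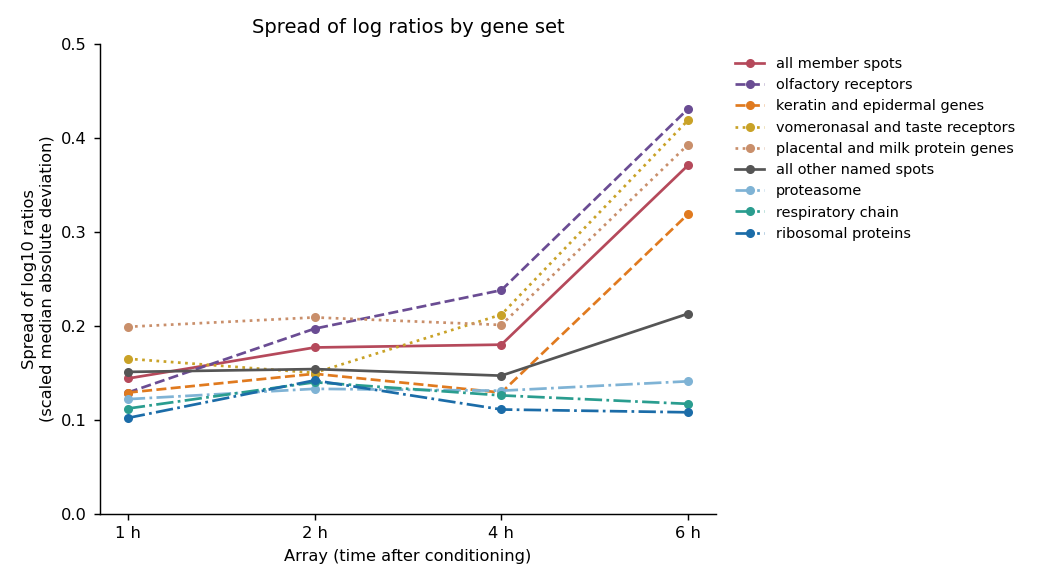
Spread of log10 ratios (scaled MAD, y axis from 0) on the arrays at 1, 2, 4 and 6 h (x axis) for member spots and other gene sets. All sets drawn lie between 0.10 and 0.24 up to 4 h. At 6 h the members reach 0.371, olfactory receptors 0.431, vomeronasal and taste receptors 0.419, placental and milk protein genes 0.393, all other named spots 0.213, and ribosomal, respiratory chain and proteasome genes 0.108 to 0.141.

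On the 6 h array the MAD was 0.194 for type I keratins, 0.267 for type II keratins, 0.221 for keratin-associated genes and 0.240 for small proline-rich genes, against 0.213 for other spots. It was 0.431 for the 67 measured olfactory receptor spots and 0.649 for the 10 late cornified envelope spots. The share of spots past 2-fold was 40% for type I keratins, 38.5% for type II keratins, 33.3% for keratin-associated genes, 35.7% for small proline-rich genes, 52.2% for olfactory receptors and 60% for late cornified envelope genes, against 24.8% for other spots. Members without the olfactory receptors had a MAD of 0.319. Other families restricted to tissues outside the brain were also wide at 6 h, with 0.419 for vomeronasal and taste receptors, 0.393 for placental prolactins and milk proteins, 0.525 for immunoglobulin genes and 0.566 for 9 defensin spots. Genes used in every cell were narrow on the same array, with 0.108 for ribosomal proteins, 0.117 for the respiratory chain and 0.141 for proteasome subunits. Relative to the mean of the 3 earlier arrays, the 6 h MAD was 2.22 times as large for members, 1.42 times for other named spots, and 0.913, 0.931 and 1.09 times for ribosomal, respiratory chain and proteasome genes. These are descriptions of single arrays, with no test of the differences between families.

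**Figure D2:**
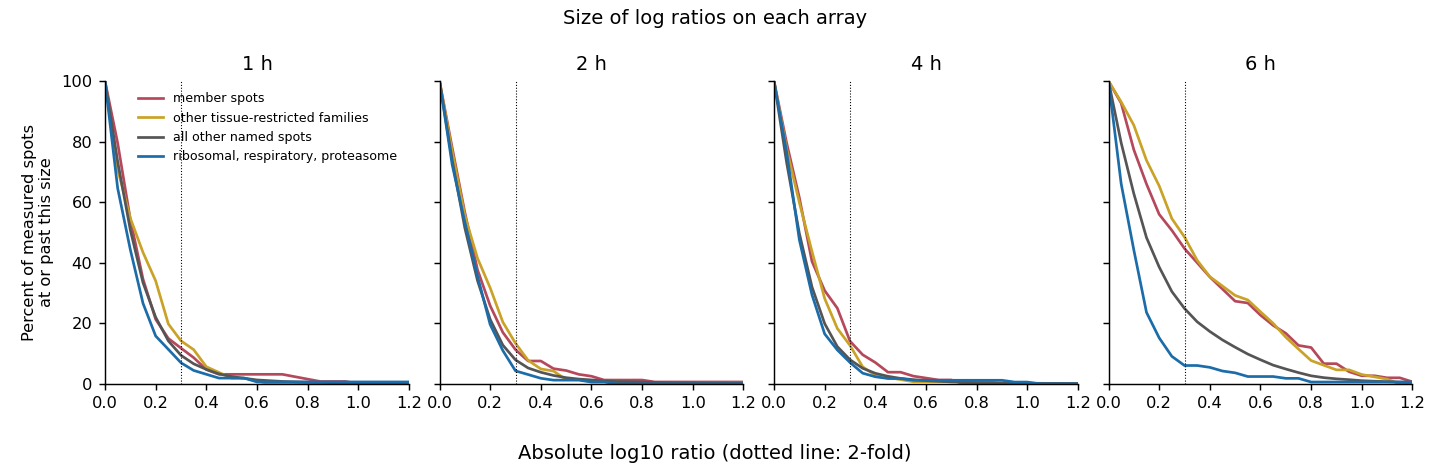
Percent of measured spots (y axis) whose absolute log10 ratio is at or past the size on the x axis, on each array, with a dotted line at 2-fold. At a size of 0.3 the members are at 11.8%, 11.3%, 14.1% and 44.7% at 1, 2, 4 and 6 h. At 6 h other tissue-restricted families are at 48.5%, all other named spots at 24.9%, and ribosomal, respiratory chain and proteasome genes at 6.06%.

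A difference of 2-fold or more was reached at 6 h by 67 of 146 members, or 45.9%, against 21.9% of all named genes. Of these, 25 were positive (17.1%, against 10.2% of all genes) and 42 negative (28.8%, against 11.7%). At 2 h, 17 of 155 members passed (11%, against 6.58%), 7 positive (against 2.44% of all genes) and 10 negative (against 4.14%). At 4 h, 20 of 151 passed (13.2%, against 7.07%), 9 positive (against 2.49%) and 11 negative (against 4.58%). At 1 h, 14 of 125 members passed (11.2%, against 8.47%). All 14 were positive, against 5.12% of all genes positive and 3.35% negative past 2-fold. In all, 86 of 159 members passed on at least 1 array (54.1%, against 32.3% of all named genes), 59 of them on 1 array only (37.1%, against 24.9%) and 0 on all 4 (against 0.103%). With base-2 logs in place of base 10, 4 members would pass at 6 h (2.74%, against 0.921%), and with natural logs 25 (17.1%, against 4.34%). With the olfactory receptors left out, 8 of 69 members passed at 1 h (11.6%, against 8.46% of all genes without them), 3 of 87 at 2 h (3.45%, against 6.49%), 5 of 83 at 4 h (6.02%, against 6.97%) and 32 of 80 at 6 h (40%, against 21.7%).

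The median of the members moved across 0 over the series. It was 0.076 at 1 h, with 87 of 125 genes positive, 0.027 at 2 h with 91 of 155, 0.026 at 4 h with 84 of 151, and -0.058 at 6 h with 67 of 146. The median over all named genes was 0.0013, -0.00074, -0.00095 and -0.0062 at these times. Members without the olfactory receptors had medians of 0.0589, 0.0492, 0.0539 and -0.00387, with 40 positive and 40 negative at 6 h. With exact zeros kept as a ratio of 1, the 6 h median of all members was -0.00507. With a running median over 51 spots removed it was -0.0235.

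**Figure D3:**
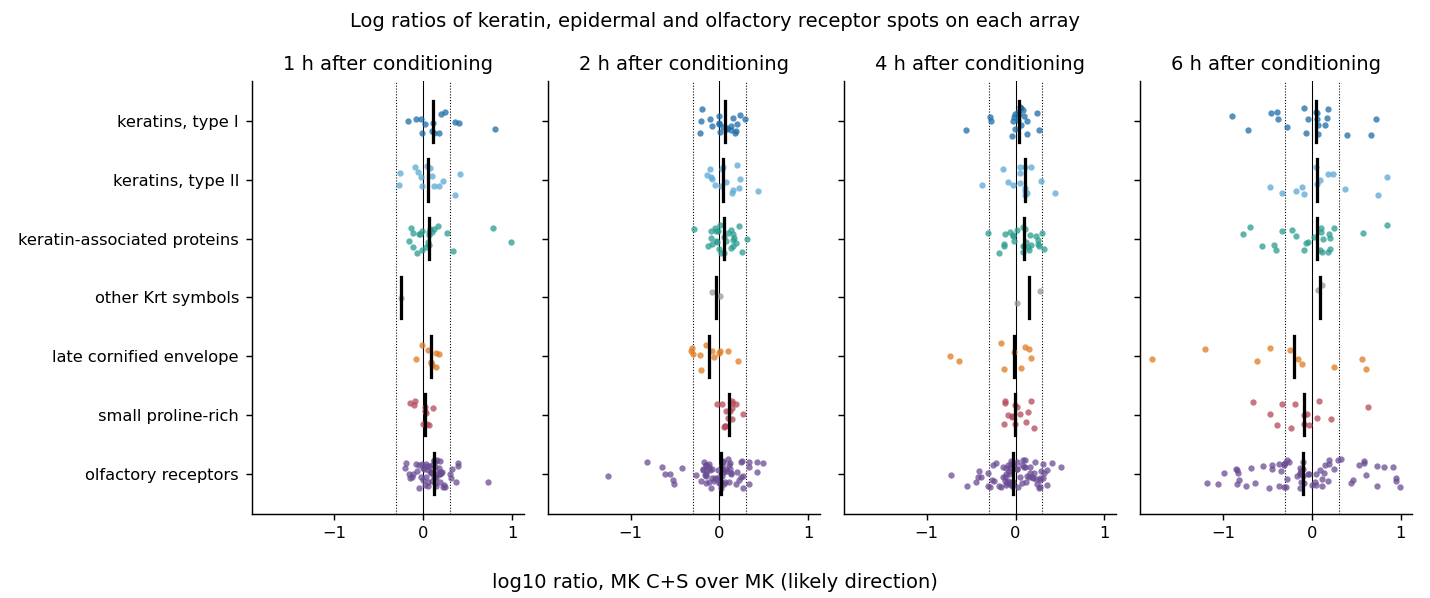
Log10 ratio of each member spot (x axis, likely MK C+S over MK) by family (rows) on each array, with family medians as bars and dotted lines at 2-fold. At 1 h the points past 2-fold are all on the positive side. At 6 h the olfactory receptors run from -1.18 to 0.994 and the late cornified envelope genes from -1.79 to 0.611.

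Type I keratins at 1 h had a median of 0.12, with 9 of 13 genes positive. Krt14, the type I chain of basal epidermal cells, was at 0.80, 0.042, 0.13 and 0.18 at 1, 2, 4 and 6 h. Its 1 h value was 6.4-fold on a single spot, and the other times were all under 2-fold. Krt20, a keratin of gut and bladder epithelium, was at 0.36, -0.22, -0.29 and -0.901. The hair keratin Krt35 was at 0.41, 0.087, -0.035 and -0.71. Both were positive at 1 h and lowest at 6 h. Krt23 ran the other way, at 0.097, 0.19, 0.25 and 0.73. Krt17, an injury-induced epidermal keratin, had a spot at 0.18, 0.18, 0.12 and 0.15 and a second spot at 0.11, -0.0018, -0.55 and 0.66. Its spots differed by 0.68 at 4 h, which is more than the distance of any keratin gene from 0 at that time, and by 0.51 at 6 h.

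Type II keratins had medians of 0.060, 0.031, 0.10 and 0.073 at 1, 2, 4 and 6 h. Krt6b, a wound-induced keratin, averaged over its spots 0.41, 0.25, 0.10 and 0.38. Its 1 h value is that of a single spot, and at 6 h a spot was at 0.85 and the other at -0.089. Krt4, a keratin of the oesophagus lining, was at 0.18, 0.23, 0.45 and 0.088, positive on every array. Krt81, a hair keratin, was the lowest member at 1 h, at -0.28, and was at 0.23, 0.17 and 0.75 later. Krt1, the partner of Krt10 in the upper epidermis, was at -0.26, 0.013, -0.14 and -0.33. Krt8 and Krt18, the pair of simple epithelia, were under 2-fold wherever measured. Krt8 was at 0.047, 0.20, 0.055 and 0.057, and Krt18 at -0.0097, 0.087 and 0.067 at 2, 4 and 6 h.

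Among keratin-associated genes, Krtap14 had the highest 1 h value of any member, 0.99, and was at 0.17, 0.021 and -0.697 later. Krtap8-1 was at 0.79, 0.014, 0.15 and -0.17. Both are on chromosome 16, where the median of 10 measured genes at 1 h was 0.12, against -0.031 for 7 measured on chromosome 11. Krtap15 was positive throughout, at 0.33, 0.054, 0.32 and 0.58, as was Krtap5-1, at 0.12, 0.13, 0.26 and 0.85. Krtap19-9b was at 0.029, -0.28, -0.18 and -0.40. Krtap6-1 had spots that differed by 0.20, 0.40 and 0.30 at 2, 4 and 6 h. Krtcap2 was at -0.25, -0.084, 0.28 and 0.066, and Krtcap3 at 0.0019, 0.021 and 0.11 at 2, 4 and 6 h, so neither passed 2-fold.

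The late cornified envelope genes were the widest family at 6 h. Lce1a2 was at 0.054, -0.16, -0.64 and -1.79, and the last is about 62-fold lower. Lce3b was at 0.096, -0.20 and -1.20 at 1, 2 and 6 h, and Lce1h at 0.18, 0.095, -0.74 and -0.62. At 6 h Lce1i and Lce1b lay on the other side, at 0.61 and 0.57, and at 4 h at 0.18 and 0.11. The spots of Lce1a2, Lce3b and Lce1h are numbered 18063, 16462 and 17823, and those of Lce1i and Lce1b 2614 and 13398. Lce1d, numbered 16727, was at -0.15 at 6 h. The part of spot position in the values of this family was not tested. Lce1m stayed under 2-fold throughout, at 0.15, -0.062, -0.016 and -0.11. At 2 h 9 of 12 genes of the family were negative, with a median of -0.12, whereas 13 of 14 small proline-rich genes were positive, with a median of 0.11 and a MAD of 0.059. Both families lie in the same cluster on chromosome 3. Sprr1a, a cornified envelope gene that injured sensory neurons also switch on, was at 0.039, 0.26, 0.022 and -0.66. Sprr2e was at -0.15, 0.15, 0.12 and 0.22, and Sprr2i at 0.071, 0.14, -0.12 and -0.47. No small proline-rich gene passed 2-fold before 6 h. At 6 h 1 of 14 passed as positive and 4 as negative, against 10.2% and 11.7% of all named genes.

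Olfactory receptors were the largest family and the widest at 2 and 4 h, with a MAD of spots of 0.197 and 0.238. At 1 h 44 of 56 measured genes were positive, with a median of 0.12. Several had values that kept their sign from 2 h on. Olfr943 was at 0.21, -0.61, -0.73 and -1.05, Olfr2 at 0.13, -0.82, -0.54 and -0.85, and Olfr138 at 0.053, -0.52, -0.44 and -1.18. Olfr544 was at 0.24, -0.64, -0.27 and -0.99. These 4 receptors were weakly positive at 1 h and negative on the other arrays. In this order, their spots are numbered 18201, 18364, 14577 and 17668. Other named spots numbered above 15000, the range of Olfr943, Olfr2 and Olfr544, had medians of the same signs. These were 0.0225, -0.0603, -0.0673 and -0.034 at 1, 2, 4 and 6 h. Olfr138 lies outside that range. Other named spots numbered 12001 to 15000, where it lies, had smaller medians of 0.00611, -0.00175, -0.0226 and -0.0248. The part of spot position in the values of these receptors was not tested. Olfr1537 was at -1.26, -0.14 and -0.44 at 2, 4 and 6 h, the lowest member at 2 h. On the positive side, Olfr49 was at 0.27, 0.51 and 0.73 at 2, 4 and 6 h, and Olfr945 at 0.090, 0.42, 0.028 and 0.91. Olfr894 was at -0.027, -0.12, -0.16 and 0.99, the highest member at 6 h and under 2-fold before. Its spot number, 2540, follows that of Olfr945, 2539. Olfr1355 was at 0.35 and 0.95 at 4 and 6 h, Olfr1077-ps1 at 0.95 at 6 h, and Olfr888 at 0.73, -0.12, -0.046 and -0.13. The remaining receptors singled out by their rank at a time were Olfr930 (0.49 at 2 h), Olfr19 (0.42 at 2 h), Olfr145 (0.34 at 2 h), Olfr156 (0.41 at 4 h), Olfr480 (0.36 at 4 h) and Olfr27 (-0.20 at 1 h). Olfr69 had spots at 0.37 and -0.11 at 1 h and at -0.14 and 0.15 at 4 h. By chromosome, the 6 h median was -0.31 for 15 receptors on chromosome 7, with 8 negative and 2 positive past 2-fold. On chromosome 9 it was -0.088 for 31 measured, with 8 negative and 6 positive. Over all 66 receptor genes measured at 6 h, 21 were negative and 14 positive past 2-fold. Over all named genes the shares were 11.7% negative and 10.2% positive. The part of spot position in these differences between chromosomes was not tested.

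Spots of the same gene gave a rough measure of how far single spots differ. They have different spot numbers and may differ in sequence, so this is not measurement error alone. Over the few members with both spots measured, the SD between spots was 0.247 (2 genes), 0.161 (4 genes), 0.302 (5 genes) and 0.412 (4 genes) at 1, 2, 4 and 6 h. Over all named genes it was 0.225, 0.204, 0.168 and 0.329. At 6 h the SD between spots of all genes was thus larger than a 2-fold difference.

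Between arrays, members had their higher correlations among the 2, 4 and 6 h arrays. Over member spots, Pearson's r was 0.465 between 2 and 4 h (n = 154), 0.438 between 2 and 6 h (n = 147) and 0.577 between 4 and 6 h (n = 146). Over other named spots it was 0.373, 0.190 and 0.316. For the olfactory receptors it was 0.575, 0.571 and 0.624. For members without them it was 0.267, 0.259 and 0.522. Other tissue-restricted families varied, with r of 0.503, 0.586 and 0.576 for immunoglobulin genes and 0.88, 0.451 and 0.619 for defensins. Vomeronasal and taste receptors had 0.432, 0.0414 and 0.324, and placental and milk protein genes 0.25, -0.0149 and 0.377. Between 1 h and the later arrays it was 0.0014, -0.048 and -0.22 for members (n = 124, 120 and 116), against 0.224, 0.025 and 0.030 for other named spots. These r values describe spots, which share their array, printed position, dye orientation and, within clusters, related sequences. Of the 112 members measured at all times, 8 passed 2-fold at both 4 and 6 h (7.14%, against 2.97% of all genes), all 8 in the same direction (against 90.2% of such genes). At both 2 and 6 h 8 passed (7.14%, against 2.13%), again all in the same direction (against 76.9%). At both 1 and 6 h 7 passed (6.25%, against 2.28%), 2 of them in the same direction (28.6%, against 44.6%).

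**Figure D4:**
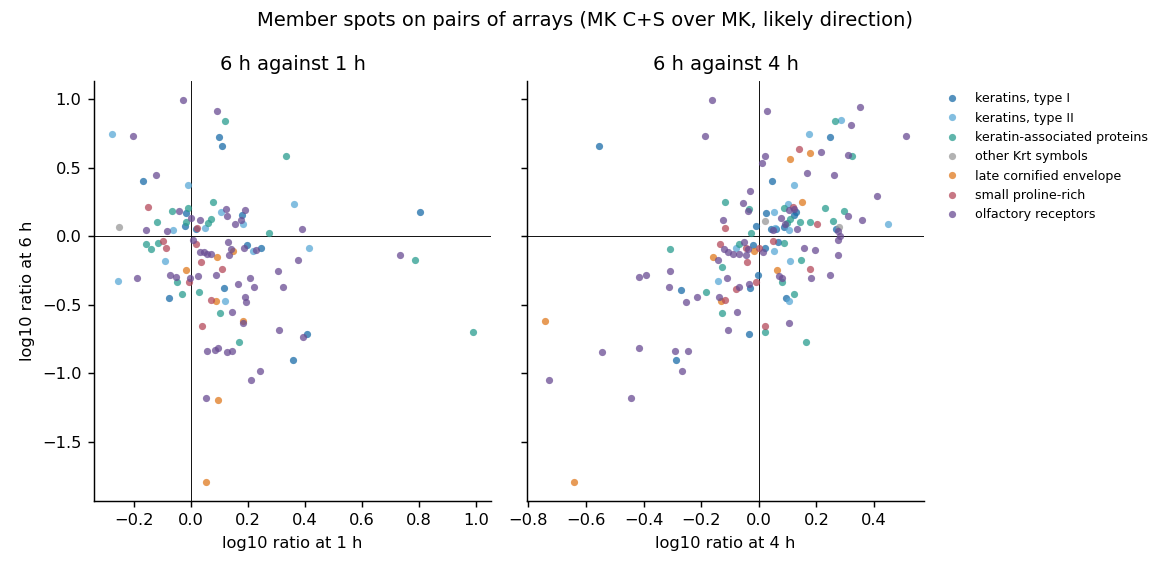
Log10 ratio of member spots at 6 h (y axis) against 1 h (left) and 4 h (right), coloured by family. The points rise together between 4 and 6 h (r = 0.577, n = 146) and not between 1 and 6 h (r = -0.22, n = 116).

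Log ratios of members also went with the number of the spot in the deposited table. At 6 h the 32 measured members with spot numbers above 15000 had a median of -0.302, with 16 below and 4 above 2-fold, against 0.067 for 31 members numbered up to 3000, with 3 below and 11 above. Other named spots in these ranges had medians of -0.034 and 0.048, with 469 below and 261 above 2-fold of 2500 above spot 15000, and 112 below and 381 above of 2097 up to spot 3000. At 4 h the members' medians were -0.172 (n = 30) and 0.061 (n = 30), and those of other spots -0.067 and 0.029. Spearman's rho of members with spot number was 0.098, -0.184, -0.407 and -0.268 at 1, 2, 4 and 6 h, against 0.099, -0.087, -0.219 and -0.125 for other named spots. Other tissue-restricted families had -0.336 and -0.334 at 4 and 6 h, and ribosomal, respiratory chain and proteasome genes -0.102 and 0.079. The log ratio of a member had a rho of 0.409, 0.358, 0.462 and 0.391 at 1, 2, 4 and 6 h with the median of its 10 nearest numbered non-member spots. The layout of the spots on the slide was not used here. With that neighbour median subtracted, the members' MAD at 6 h was 0.335, against 0.371 before, and with a running median over 51 spots removed 59 of 146 members still passed 2-fold at 6 h (40.4%, against 19.0% of all genes).

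**Figure D5:**
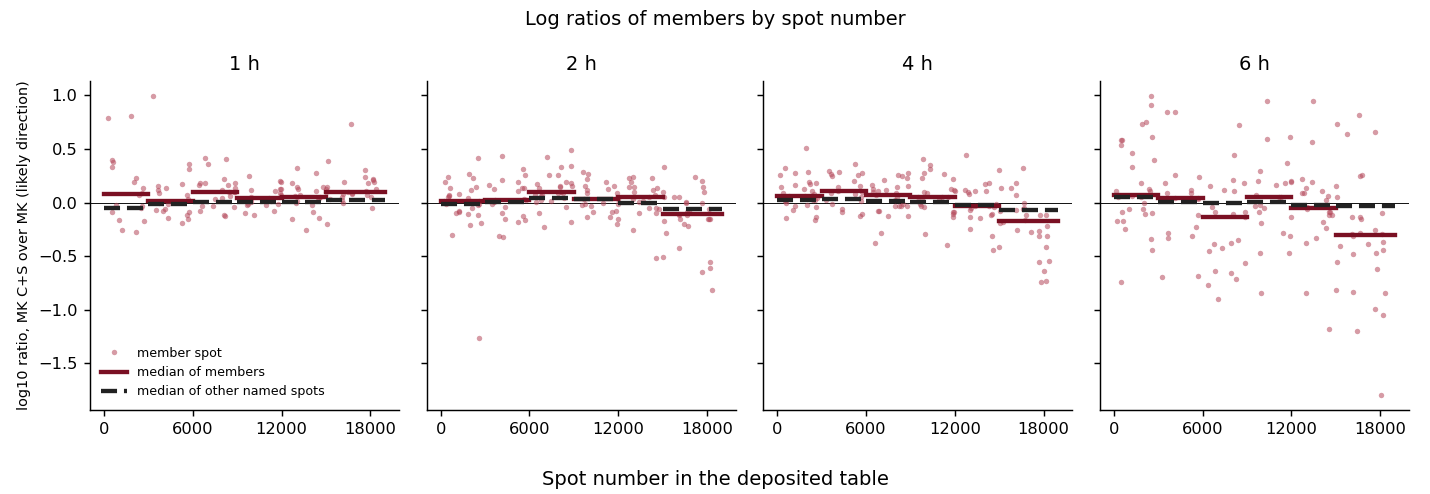
Log10 ratio of each member (points) by its spot number in the deposited table (x axis) on each array, with medians over ranges of spot numbers for members (solid) and other named spots (dashed). Medians of members above spot 15000 lie at -0.172 at 4 h and -0.302 at 6 h, below those of the other named spots.

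Tests over the arrays asked whether a member differed on average over the 4 times, with the spread between times as error. In limma's moderated test of the mean, 0 of 112 members measured on all arrays passed an adjusted p of 0.05, as did 0% of the 8553 genes tested. Before adjustment the test gave p under 0.05 for 19 members (17%, against 11.4% of all genes), of which 11 had a mean above 0 and 8 below. Without the 4 h array this was 5 members (4.39%, against 7% of all genes), without the 2 h array 12 (10.71%, against 6.42%), and without the 1 h array 34 (24.1%, against 12.2%). The median of the members' means was -0.00049, against -0.0095 over all genes tested. The lowest p was that of Krt6b, with a mean of 0.288 ± 0.067 (SE, n = 4 arrays, limma's adjusted p 0.416), positive at all 4 times only as the average of its spots. The only Krt6b spot measured on all 4 arrays had a mean of 0.079 and was negative at 4 and 6 h. Krtap15 followed at 0.323 ± 0.087, also positive at all times (limma's adjusted p 0.416), and Krt4 at 0.236 ± 0.070 (limma's adjusted p 0.427). Olfr2 averaged -0.52 ± 0.16, negative at 3 of 4 times, Olfr653 averaged -0.22 ± 0.068, negative at all 4, and Olfr957 averaged 0.226 ± 0.072, positive at all 4, each with limma's adjusted p at 0.427. A mean of 2-fold or more with the same sign at all times was found for 4 of 112 members (3.57%, against 1.46% of all genes), namely Krtap5-1 (0.34), Krtap15 (0.32), Olfr945 (0.36) and Krt23 (0.31). The sign was the same at all 4 times for 21 of 112 members, or 18.8%, against 21.9% of other genes.

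The slope on hours asked whether a log ratio drifted over the series. Again 0 of 112 members and 0% of all genes passed limma's adjusted p of 0.05. Unadjusted, 35 members had a p under 0.05, which is 31.2%, against 14.6% of all genes, and 29 of the 35 slopes were negative. Without the 6 h array this was 13 members (11.02%, against 7.94% of all genes), and the median slope of the members was -0.020 per h. The median slope of the members was -0.035 per h, against -0.0036 over all genes tested, and 76 of 112 were negative. The steepest by p were Lce1a2 at -0.362 ± 0.043 per h (SE, n = 4 arrays, limma's adjusted p 0.106), Krtap14 at -0.294 ± 0.048, Krt35 at -0.204 ± 0.035 (both with limma's adjusted p 0.113) and Krt20 at -0.218 ± 0.040 (limma's adjusted p 0.128). Each is a single spot. Without the 6 h array the slopes of Lce1a2, Krtap14, Krt35 and Krt20 were -0.233, -0.287, -0.135 and -0.189 per h. Without the 4 h array, 21 of 114 members and 418 of 8628 genes passed, Lce1a2, Krtap14, Krt35 and Krt20 among them, in a fit that leaves 1 residual degree of freedom. Without the 1 h, 2 h or 6 h array 0 members passed.

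Other genes of skin and of the nose, outside the rule, gave a comparison for the members. Of 57 listed epidermal genes, 39 were on the array. Their medians were 0.010, -0.0052, -0.0027 and -0.036 at 1, 2, 4 and 6 h. At 1 h 5 positive and 2 negative of 31 measured were past 2-fold, against 5.12% and 3.35% of all named genes. At 6 h it was 3 positive and 9 negative of 37, against 10.2% and 11.7%. The MAD at 6 h was 0.371 for member genes, against 0.286 for this list. Cnfn, a cornified envelope component, had the lowest mean, with values of 0.039, -0.55, -0.47 and -0.72, and Stfa2 the highest, at 0.38, 0.16 and 0.24 at 2, 4 and 6 h. Of 35 listed olfactory sensory neuron and nasal genes, 18 were on the array, with medians of 0.011, 0.018, 0.023 and 0.093 and a MAD of 0.481 at 6 h. Ugt2a1, an olfactory detoxifying enzyme, had the highest mean (0.35, 0.39 and 0.47 at 2, 4 and 6 h) and Bpifa1, a secreted protein of nasal epithelium, the lowest (0.28, -0.28, -0.55 and -0.59). Markers of CA1 pyramidal neurons had a MAD of 0.170 at 6 h, close to the 0.162, 0.150 and 0.171 at the earlier times, with medians of -0.0019, -0.027, 0.0074 and -0.039. Wfs1 had the highest mean of these (0.21) and Neurod6 the lowest (-0.22).

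At 1 h, when members past 2-fold were all positive, markers of choroid plexus and ependyma were high as well, with a median of 0.447. Of 11 measured, 9 were positive and 7 were positive past 2-fold, against 5.12% of all named genes positive past 2-fold. Ecrg4, at 1.5, was the highest of these and had the highest mean of the list, and Cldn2 the lowest (-0.086 and -1.82 at 1 and 6 h). Of the members that list shares, Krt8 was at 0.047 and Krt18 was not measured at 1 h. At 2, 4 and 6 h that list's median was -0.0097, 0.015 and -0.028. Meningeal markers had medians of -0.012, 0.063, -0.0063 and 0.070, with Aldh1a2 at the highest mean (0.27) and Foxc2 at the lowest (-0.16). Of other tissue-restricted families at 1 h, immunoglobulin genes had a median of 0.217, with 13 of 17 genes positive. Defensins were at 0.0624 (6 of 8 positive) and vomeronasal and taste receptors at 0.00152 (18 of 35). Placental and milk protein genes were at 0.0295 (14 of 25). The part of choroid plexus tissue in the members' positive values at 1 h was not tested. Exact zeros, at 22.6% of member spots, were also most frequent on that array.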

How the data were processed

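This account concerns 4 arrays of 2 colours, 1 at each of 1, 2, 4 and 6 h, grouped by time as labelled. The authors deposited log ratios, read here as log10, per the labels' dyes likely red (MK C+S) over green (MK). Base 10 was assumed with the range of -3.10 to 1.58 in view, which does not settle the base. Every deposited column had a median of 0, and scale, centring and direction are not stated. The sources used here name no scanner and no normalization, and spot intensities were not analysed. Columns that belong to other samples numbered 0.

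Exact zeros were taken as unmeasured, and the median of the remaining spots (0.0055, -0.00038, 0.00073 and -0.0054) was subtracted. A platform annotation named 13738 spots with 1 gene, 52 with several and left 2491 unnamed. All 164 member spots matched RefSeq by Entrez identifier, and 0 symbols changed. Spots of 1 gene were averaged. The mean and the slope were fitted to all genes measured on 4 arrays by limma 3.58.1 under R 4.3.3 (lmFit, eBayes), two-sided with Benjamini-Hochberg adjustment, and tested on simulated data. Residual degrees of freedom were 3 and 2. The MAD was scaled by 1.4826. The number of arrays limits precision.

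The members, families and lists (epidermal, olfactory, CA1, choroid plexus and meningeal genes) were chosen with earlier results of these data known. Named genes were the 4 highest and 4 lowest members per time, the extremes of mean in each family and list, the 6 lowest p for the mean and 4 for the slope, those with 1 sign and a 2-fold mean, the 4 with the most discordant spots, and Krt8, Krt18, Krt222 (no spot matched), Sprr1a and Krtcap genes. Promoters were chosen after values were seen, as was the comparison with neighbouring spots. Alternatives covered zeros, centring, scaling, thresholds, log base, spot summary, families, weights and leaving out each array.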

Additional observations from a re-analysis of the deposited data

Results flagged for a closer look

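Past 2-fold in opposite directions at different times were 7 of 159 members (4.4%), against 225 of 10539 other genes (2.13%). With 1 array a time, the differences between times were not tested. Krt20 was at 0.359 at 1 h and -0.901 at 6 h. Krt35 was at 0.408 at 1 h and -0.713 at 6 h. Krtap14 was at 0.99 at 1 h and -0.697 at 6 h. Olfr154 was at 0.394 at 1 h and -0.738 at 6 h, and had no ratio between. Olfr16 was at 0.306 at 1 h and -0.308 at 4 h. Olfr67 was at 0.322 at 1 h and -0.374 at 6 h, and Olfr933 at 0.31 at 1 h and -0.683 at 6 h. In all 7 the positive value was the 1 h one.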

How the results depend on the processing

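Of the values that answer a comparison, 82 under an alternative stayed close to those reported and 20 moved. Close meant within a factor of 1.5 for a count past 2-fold, and an equal count of members called for a test. For a ratio of MADs it meant within 0.334, the SD of that ratio over the arrays. This is a wide margin, under which a mean ratio of 1.05 in place of 1.27 counts as close. Some of the 82 could not have moved. No member had more than 2 spots, so the median of its spots equals their mean, and a MAD does not change with centring. Others were test counts of 0 members that stayed at 0. The tally is therefore not a measure of how robust the values are. The 6 h ratio of member to other MAD lay between 1.46 and 1.87 over the alternatives, against 1.74, and its mean over arrays between 1.05, without olfactory receptors, and 1.37. Counts of members past 2-fold at 1, 2, 4 and 6 h (14, 17, 20 and 67) were 8, 3, 5 and 32 without olfactory receptors. With natural logs they were 4, 2, 2 and 25 (3.2%, 1.29%, 1.32% and 17.1%, against 0.753%, 0.581%, 0.63% and 4.34% of all genes). With base-2 logs they were 0, 1, 0 and 4 (0%, 0.645%, 0% and 2.74%, against 0.24%, 0.227%, 0.223% and 0.921%). At 1.5-fold they were 35, 50, 51 and 91 (28%, 32.3%, 33.8% and 62.3%, against 25.1%, 24.2%, 23.1% and 39.9% of all genes). At 3-fold they were 4, 8, 5 and 39 (3.2%, 5.16%, 3.31% and 26.7%, against 2.47%, 1.73%, 1.73% and 10.8%). Leaving out each array gave 0 to 21 members called for the slope and 0 for the mean. The 21 came from the fit without the 4 h array, which has fewer arrays and 1 residual degree of freedom, and Lce1a2, Krtap14, Krt35 and Krt20 then passed with slopes of -0.381, -0.302, -0.217 and -0.228. The means of Krt6b, Krtap15, Krt4, Olfr653, Olfr2 and Olfr957 and the slopes of these 4 genes kept their direction under every alternative run. Over all genes, the mean called 1 gene with quantile normalization, 2 with array weights and 1 without the 4 h array, none of them a member. Each array scaled to the same MAD gave 14, 20, 29 and 52 members past 2-fold. These were 11.2%, 12.9%, 19.2% and 35.6% of members, against 10.1%, 8.35%, 9.45% and 14.9% of all genes. No paired analysis was possible because each group has a single array. Signal over background was not available to set the depth of any value.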
